A study of Homo sapiens with 10 samples.

Results

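The genes described here are 6 that encode hnRNP proteins, *HNRNPK*, *HNRNPM*, *HNRNPR*, *SYNCRIP* (which encodes hnRNP Q), *HNRNPU* and *HNRNPUL1*, out of 10779 genes with split reads in the deposited files. They were chosen by name, and their introns and exons are those whose GRCh37 splice sites match these genes in GENCODE release 44. All 6 were found, with 146 introns (31 of them not annotated) and 217 exon records. The RNA came from A549, an established line of lung adenocarcinoma cells, and was poly(A)-selected before directional library preparation. There were 5 conditions with 2 libraries each. The controls received DMSO by their labels, while the study's methods speak of an untreated control for α-amanitin. Other cells received α-amanitin, a toxin from mushrooms that slows RNA polymerase II by binding to it, at 1 or 2 μg/mL for 24 h. The rest received DRB, which blocks kinases needed for transcript elongation, at 10 or 25 μg/mL. How long cells stayed in DRB or DMSO was not stated in the sources used here. These are bulk RNA samples, in which fewer cells of a type and less RNA per cell cannot be told apart. The study's methods call its replicates bioreplicates without saying how the cultures were kept apart, and each p-value is relative to the spread of 2 libraries per condition, which may be technical.

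hnRNP proteins coat nascent pre-mRNA and take part in exon choice, polyadenylation, export and translation. An exon whose skipping or inclusion shifts the reading frame can bring in a premature stop codon, which marks the mRNA for nonsense-mediated decay. The choice of splice sites is also known to depend on how fast the polymerase passes them, which is one reason why polymerase inhibitors are used in splicing studies.

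The libraries held between 2899344 and 6498515 split reads, which are reads that span an intron, and 45513 to 90955 introns were listed per library. In the 25 μg/mL DRB libraries 45513 and 60620 introns were listed, and in the other libraries at least 74739. After scaling, the median log2 fold change of all genes against DMSO was −0.99 at 25 μg/mL DRB and between 0.03 and 0.04 in the other conditions, so each change at 25 μg/mL DRB is also given relative to that median. The median was −1.49 when scaling by total split reads and −0.02 over introns listed in every library. It thus depends on scaling and on which introns are counted. A place above −0.99 does not by itself show that a gene was spared. Of 8 markers fixed for A549, 4 (*KRT7*, *KRT8*, *KRT18* and *NQO1*) had at least 1 CPM in every library, and *EPCAM* and *CDH1* had no listed split reads. *AKR1B10* and *AKR1C1* had reads but were at 0 in at least 1 library. Of 8 markers of blood, endothelial and fibroblast cells 7 were at 0, and *COL1A1* ranged from 0 to 155 CPM. The libraries of a condition were further apart than counting error, with chi-squared per degree of freedom between 7.07 and 17.23.

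The 6 genes did not share 1 pattern of change in split reads. At 10 μg/mL DRB *HNRNPK* fell and *HNRNPU* rose, 2 of the 6 genes, where 14.8% of all 9461 genes tested were called. At 25 μg/mL DRB *HNRNPM*, *HNRNPR* and *SYNCRIP* fell, 3 of 6, where 61.3% of all genes were called, so that share is no higher than the background. At 1 μg/mL α-amanitin none of the 6 was called, and neither was any of 9609 genes by limma voom (0%), although 971 genes had an unadjusted p under 0.05. At 2 μg/mL α-amanitin *HNRNPR* alone of the 6 was called, a fall, where 6.4% of all genes were called. Between the DRB doses 5 of 6 differed, with *HNRNPK* higher and *HNRNPM*, *HNRNPR*, *HNRNPU* and *SYNCRIP* lower at 25 μg/mL, where 64.2% of all genes were called. Between the α-amanitin doses none of the 6 and none of 9609 genes was called by limma voom (0%), with 1023 at an unadjusted p under 0.05. The 2 calls at 10 μg/mL DRB were lost when any library of DMSO or of that dose was left out. Such a fit leaves 1 library in a group and cannot tell whether a single library carries a change. The log2 fold changes then ran from −0.73 to −0.60 for *HNRNPK* and from 0.32 to 0.57 for *HNRNPU*.

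**Figure D1:**
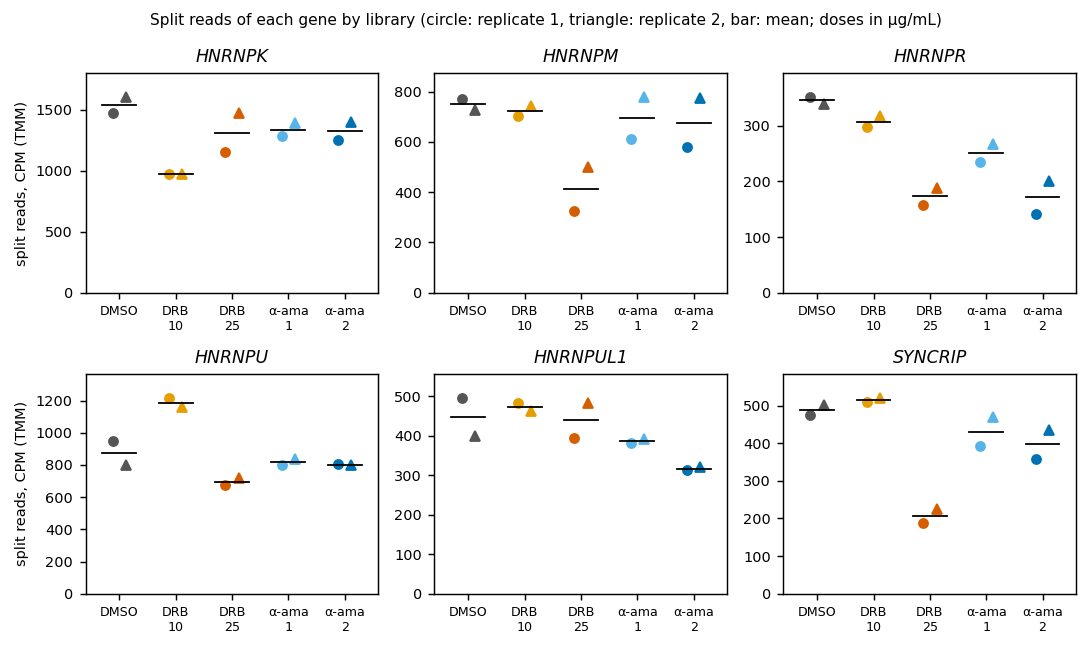
Split reads of each gene in each library, in CPM (reads per 1000000) after TMM scaling (vertical axes, starting at 0), by condition with doses in μg/mL. *HNRNPK* is lowest and *HNRNPU* highest at 10 μg/mL DRB, while *HNRNPM*, *HNRNPR* and *SYNCRIP* lie far below DMSO at 25 μg/mL DRB.

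**Figure D2:**
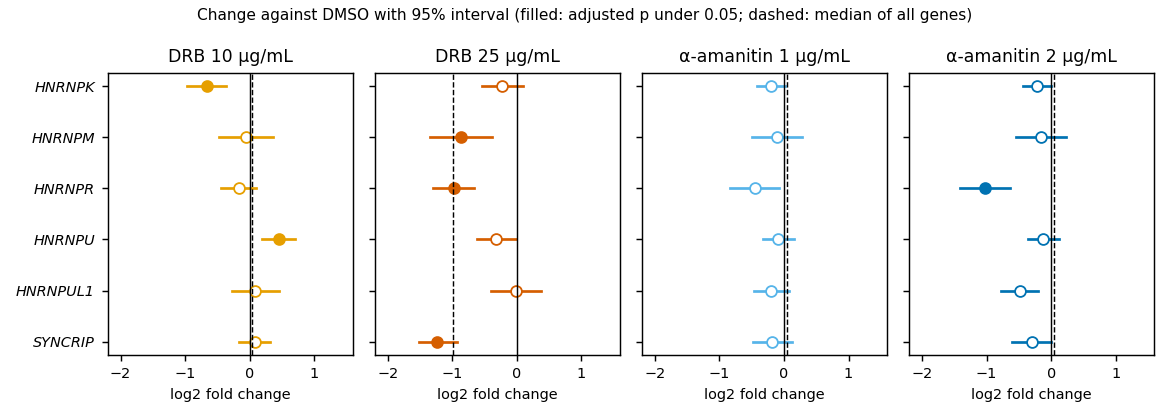
Fitted log2 fold change of each gene against DMSO with its 95% interval, by treatment. Filled points passed an adjusted p of 0.05, and the dashed line is the median of all genes, which lies at −0.99 at 25 μg/mL DRB.

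Levels of different genes were compared per intron, as the median CPM over the introns of the MANE transcript, the reference transcript of a gene. In DMSO this level was 85.3 ± 0.501 for *HNRNPK* (SD, n = 2), 58.8 ± 11.4 for *HNRNPU*, 48.1 ± 2.92 for *HNRNPM*, 45.5 ± 4.32 for *SYNCRIP*, 32.0 ± 0.358 for *HNRNPR* and 29.3 ± 3.95 for *HNRNPUL1*. *HNRNPK* lay above the other genes in both libraries. The libraries of *HNRNPM* and *SYNCRIP* overlapped, and so did those of *HNRNPR* and *HNRNPUL1*, so these neighbours in the order did not differ beyond their spread. At 10 μg/mL DRB the first place changed, with *HNRNPU* at 84.0 ± 4.67 and *HNRNPK* at 58.7 ± 0.207 CPM per intron. The lowest levels per intron at 25 μg/mL DRB were those of *SYNCRIP* (17.4 ± 2.38) and *HNRNPR* (17.2 ± 1.82).

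*HNRNPK* (ENSG00000165119, chr9:86582998-86595546, minus strand, GRCh37) encodes hnRNP K, a protein with KH domains that binds C-rich RNA. It had 1471 and 1606 CPM of split reads in DMSO, 972 and 970 in 10 μg/mL DRB, 1151 and 1470 in 25 μg/mL DRB, 1282 and 1389 at 1 μg/mL α-amanitin, and 1251 and 1400 at 2 μg/mL α-amanitin. The 10 μg/mL DRB libraries were the lowest, and all 4 treatments lay below DMSO, although the higher library at 25 μg/mL DRB all but met the lower DMSO library. The log2 fold change at 10 μg/mL DRB was −0.66 (SE 0.12, adjusted p = 0.0239 by limma voom). Without any single library of that comparison it stayed between −0.73 and −0.60, with adjusted p from 0.106 to 0.179. The dose of 25 μg/mL gave a smaller difference from DMSO, −0.23 (adjusted p = 0.17), which lies 0.76 above the median of all genes, and the doses differed by 0.44 (SE 0.12, adjusted p = 0.0255). The difference at 25 μg/mL DRB passed the threshold under 3 of 13 alternatives. With scaling by total split reads, 1 of them, it was −0.73 (adjusted p = 0.00108). In all 16 introns of the MANE transcript the mean CPM at 10 μg/mL DRB was below DMSO, with log2 ratios from −0.85 to −0.39.

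The coding exon 8 of *HNRNPK* (chr9:86588817-86588888) is a cassette exon of 72 nt, a multiple of 3, and is shown because its inclusion was higher in every treatment. Below, the exon is in capitals and the flanking intron bases in lower case (GRCh37, minus strand, chr9:86588809-86588908).
HNRNPK exon 8: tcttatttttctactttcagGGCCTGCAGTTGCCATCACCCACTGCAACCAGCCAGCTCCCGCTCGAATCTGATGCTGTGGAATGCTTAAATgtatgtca
Of the exon 55.6% is G or C.

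Reads that skipped exon 8 numbered 39 and 63 in DMSO, 6 and 11 in 10 μg/mL DRB, 3 and 12 in 25 μg/mL DRB, 29 and 46 at 1 μg/mL α-amanitin, and 16 and 30 at 2 μg/mL α-amanitin. The inclusion level Ψ, which is inc/(inc + 2 × exc), was 0.884 and 0.861 in DMSO. It was 0.975 and 0.961 in 10 μg/mL DRB, 0.978 and 0.958 in 25 μg/mL DRB, 0.906 and 0.912 at 1 μg/mL α-amanitin, and 0.957 and 0.938 at 2 μg/mL α-amanitin. No treated library overlapped DMSO. On the log2 odds scale the difference from DMSO was 2.14 at 10 μg/mL DRB (unadjusted p = 0.00145, adjusted p = 0.0764), 2.01 at 25 μg/mL DRB (adjusted p = 0.0123), 0.58 at 1 μg/mL α-amanitin (adjusted p = 0.441) and 1.38 at 2 μg/mL α-amanitin (unadjusted p = 0.00208, adjusted p = 0.101). The rise at 25 μg/mL DRB passed the threshold, and the others did not.

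Counts over all exons and introns of the 6 genes put this in context. In the exon inclusion test 33 of 44 member exons were called at 25 μg/mL DRB (4 higher, 29 lower), where 51.8% of 10875 exons were called. Of these 33 exons 21 had no listed skipping read in DMSO, and 18 had none in 10 μg/mL DRB either. Those 18 passed the filter on low reads only through the libraries at 25 μg/mL DRB, so they had to differ, and neither this count nor its direction is a result about the members. None of 44 was called at 10 μg/mL DRB, where 0.0276% of all exons were, and none of 25 at 1 μg/mL α-amanitin (background 0%, with 1181 of 10341 exons at an unadjusted p under 0.05) or at 2 μg/mL α-amanitin (background 0.029%). At an unadjusted p under 0.05 there were 12, 5 and 8 member exons in these 3 conditions, and by limma on log2 odds 2, 0 and 0 were called. For the usage of introns against introns sharing a splice site, 44 of 76 were called at 25 μg/mL DRB (21 higher, 23 lower), where 45.3% of 12654 introns were called. Of the 44 member introns 28 had no reads on 1 side of the comparison in DMSO and 22 had none in 10 μg/mL DRB either. None was called in the other conditions, in which 20, 7 and 15 had an unadjusted p under 0.05. The background for intron usage was 0.0158% at 10 μg/mL DRB, 0% at 1 μg/mL α-amanitin and 0.0286% at 2 μg/mL α-amanitin. Exon records of a gene often share splice sites and reads, so these counts are not of independent events. None of the member exon or intron calls at 25 μg/mL DRB held when any 1 library of DMSO or of 25 μg/mL DRB was left out, when the replicate number was a block, or with no minimum of reads per library. Values per library are therefore given for each exon below, and calls at 25 μg/mL DRB should be read with that limit.

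Elsewhere in *HNRNPK*, the 170-nt exon 16 (chr9:86585077-86585246) lies upstream of the intron that holds *MIR7-1*. An intron that skips it, from the donor of exon 15 to the acceptor of exon 17, is not annotated and was listed only at 25 μg/mL DRB, with 7 and 9 reads (usage 2.69% and 1.76%). The acceptors of exon 17 lie 60 nt apart, and the distal site was used in 20.4% and 28.7% of split reads in DMSO, 14.4% and 25.0% in 10 μg/mL DRB, 16.0% and 23.5% in 25 μg/mL DRB, 20.8% and 27.1% at 1 μg/mL α-amanitin, and 20.5% and 28.5% at 2 μg/mL α-amanitin. In every condition replicate 1 lay below replicate 2, and the conditions overlapped. Each DRB library lay below the DMSO library of the same number, while the α-amanitin libraries lay on both sides. No label says that the numbers pair libraries. Neither DRB difference was called by the quasi-binomial test (adjusted p = 0.768 at 10 and 0.617 at 25 μg/mL). The MANE first exon was joined to exon 2 in 20.2% and 16.6% of competing split reads in DMSO and in 27.5% and 33.3% at 25 μg/mL DRB, a rise (adjusted p = 0.044). At 1 μg/mL α-amanitin the share was 13% and 9.09% (adjusted p = 0.354) and at 2 μg/mL α-amanitin 13% and 14.1% (adjusted p = 0.36).

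*HNRNPM* (ENSG00000099783, chr19:8509651-8553998, plus strand) encodes hnRNP M, an RNA-binding protein with RRM domains known as a splicing regulator in epithelial and mesenchymal cells. It had 773 and 729 CPM in DMSO, 704 and 742 in 10 μg/mL DRB, 326 and 499 in 25 μg/mL DRB, 610 and 780 at 1 μg/mL α-amanitin, and 580 and 774 at 2 μg/mL α-amanitin. Only the 25 μg/mL DRB libraries stood apart from DMSO. There the log2 fold change was −0.87 (SE 0.19, adjusted p = 0.0108 by limma voom), 0.12 above the median of all genes, and without the first DMSO library it was −0.83 (adjusted p = 0.0581). Over its 15 MANE introns the log2 ratio to DMSO at that dose ran from −1.37 to −0.60.

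While the level of *HNRNPM* at 10 μg/mL DRB overlapped that of DMSO (log2 fold change −0.05, 95% interval −0.47 to 0.36), the lowest unadjusted p of any member exon or intron at this dose was in this gene. The coding exon 13 (chr19:8548042-8548095, 54 nt, a multiple of 3) and an optional intron of 117 nt inside the coding exon 6 (chr19:8530247-8530363) are shown because their values lay apart from DMSO in both DRB conditions. Capitals mark the exon in the first sequence and the optional intron, from its GT to its AG, in the second (GRCh37, plus strand, chr19:8548022-8548103 and chr19:8530227-8530383).
HNRNPM exon 13: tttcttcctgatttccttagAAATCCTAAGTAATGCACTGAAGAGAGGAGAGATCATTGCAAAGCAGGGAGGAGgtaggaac
HNRNPM optional intron: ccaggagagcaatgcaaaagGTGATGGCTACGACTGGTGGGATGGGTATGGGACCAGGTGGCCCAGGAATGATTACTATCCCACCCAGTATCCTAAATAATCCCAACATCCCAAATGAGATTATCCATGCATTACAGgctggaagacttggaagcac
The optional intron is 47.9% G or C, and since its length is a multiple of 3, removing it keeps the reading frame.

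Skipping reads of exon 13 numbered 53 and 61 in DMSO, 111 and 122 in 10 μg/mL DRB, 33 and 61 in 25 μg/mL DRB, 50 and 153 at 1 μg/mL α-amanitin, and 110 and 129 at 2 μg/mL α-amanitin. Inclusion (Ψ) was 0.738 and 0.725 in DMSO, 0.486 and 0.490 in 10 μg/mL DRB, 0.436 and 0.575 in 25 μg/mL DRB, 0.698 and 0.610 at 1 μg/mL α-amanitin, and 0.513 and 0.596 at 2 μg/mL α-amanitin. All 8 treated libraries lay below both DMSO libraries. The log2 odds difference from DMSO was −1.51 at 10 μg/mL DRB (unadjusted p = 0.000763, adjusted p = 0.0658), −1.24 at 25 μg/mL DRB (adjusted p = 0.0175), −0.64 at 1 μg/mL α-amanitin (adjusted p = 0.446) and −1.09 at 2 μg/mL α-amanitin (unadjusted p = 0.00617, adjusted p = 0.112). Ψ pools the upstream and downstream junctions of exon 13, which were uneven. In DMSO the upstream junction had 219 and 226 reads and the downstream one 80 and 95. At 10 μg/mL DRB these were 130 and 157 upstream, and 80 and 77 downstream. Against competing split reads both junctions were lower there, with log2 odds differences of −1.66 and −1.19. Exon 13 of *HNRNPM* and exon 8 of *HNRNPK* differed from DMSO in opposite directions in the same libraries.

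Removal of the optional intron of *HNRNPM*, which was chosen after its values were seen, was read from its split reads and the reads that cross its edges unspliced. These unspliced reads are exonic in the MANE transcript. The intron had 146 and 125 split reads in DMSO, 214 and 279 in 10 μg/mL DRB, 38 and 76 in 25 μg/mL DRB, 131 and 212 at 1 μg/mL α-amanitin, and 156 and 224 at 2 μg/mL α-amanitin. Unspliced reads at its edges numbered 191 and 212 in DMSO, 65 and 96 with 10 μg/mL DRB, 30 and 76 with 25 μg/mL DRB, 171 and 335 with the lower and 167 and 277 with the higher α-amanitin dose. The share removed was 57.3% ± 4.49 in DMSO (SD, n = 2), 86.1% ± 1.06 at 10 μg/mL DRB, 69.2% ± 3.56 at 25 μg/mL DRB, 58.2% ± 3.28 at 1 μg/mL α-amanitin and 63.5% ± 2.36 at 2 μg/mL α-amanitin. The 10 μg/mL DRB libraries were above all others, with a log2 odds difference of unspliced against split reads of −2.19 from DMSO (unadjusted p = 3.06e-05), which did not pass the adjustment over 6892 introns (adjusted p = 0.203, background 0% called, 760 at an unadjusted p under 0.05).

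**Figure D3:**
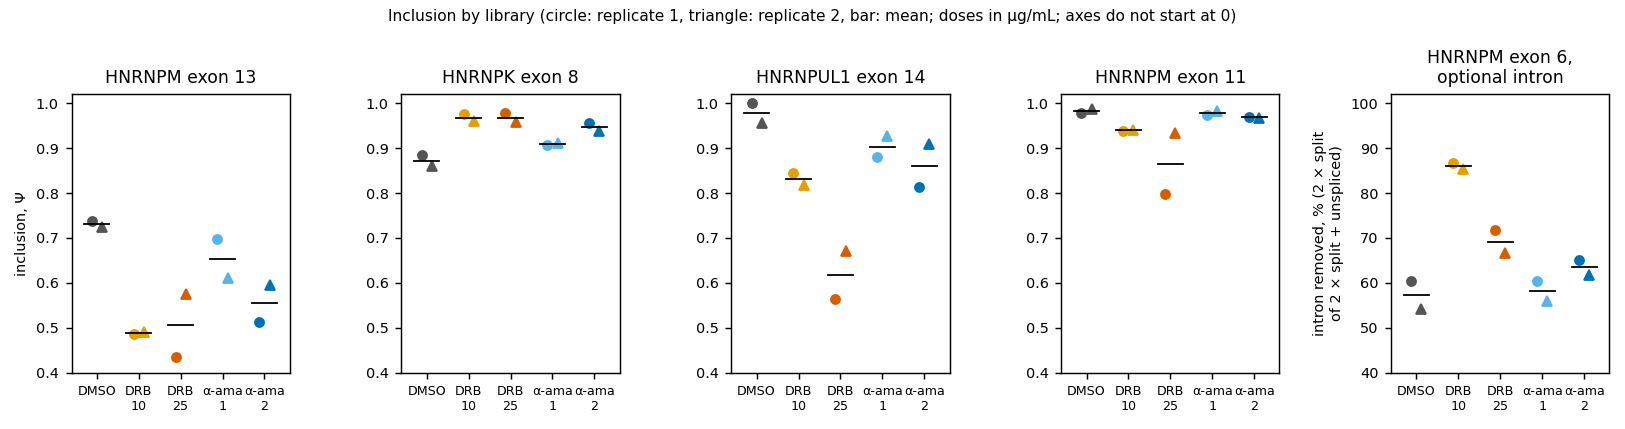
Inclusion of 4 exons (Ψ, left) and removal of the optional intron of *HNRNPM* (percent, right) in each library, by condition. *HNRNPM* exon 13 is lower and *HNRNPK* exon 8 higher than DMSO in every treated library, and the optional intron is removed most at 10 μg/mL DRB.

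Other exons of *HNRNPM* were skipped mainly at 25 μg/mL DRB. For the 45-nt exon 11 (chr19:8538548-8538592) Ψ was 0.979 and 0.987 in DMSO, 0.938 and 0.941 at 10 μg/mL DRB (adjusted p = 0.227) and 0.798 and 0.933 at 25 μg/mL DRB, a fall (adjusted p = 0.0405), with 0.968 to 0.983 in the α-amanitin libraries. The 50-nt exon 8 (chr19:8532419-8532468) had no listed skipping read in DMSO or at 1 μg/mL α-amanitin, 4 and 4 in 10 μg/mL DRB, 10 and 20 in 25 μg/mL DRB, and 8 in 1 library at 2 μg/mL α-amanitin. None of these reads joined exon 7 to exon 9. An unannotated intron from a site inside intron 7 to exon 9 held 4 and 4 of them in 10 μg/mL DRB and 7 and 14 in 25 μg/mL DRB. The others at 25 μg/mL DRB start in exon 6 and skip exon 7 as well. For exon 8 Ψ was 0.825 and 0.835 at 25 μg/mL DRB, the lowest of the libraries. The 154-nt exon 7 had 3 and 6 skipping reads at that dose, all of them also counted for exon 8. The 53-nt exon 3 had 4 and 5 there, with 0 to 5 in the other libraries.

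*HNRNPR* (ENSG00000125944, chr1:23630264-23670829, minus strand) and *SYNCRIP* (ENSG00000135316, chr6:86317497-86353781, minus strand) encode closely related proteins, hnRNP R and hnRNP Q, with roles in mRNA transport, stability and translation. *HNRNPR* had 352 and 339 CPM in DMSO, 297 and 317 in 10 μg/mL DRB, 158 and 189 in 25 μg/mL DRB, 235 and 268 at 1 μg/mL α-amanitin, and 142 and 201 at 2 μg/mL α-amanitin. Every treatment lay below DMSO without overlap, and the 25 μg/mL DRB and 2 μg/mL α-amanitin libraries overlapped each other. The gene fell at 25 μg/mL DRB (log2 fold change −0.98, SE 0.13, adjusted p = 0.00168), 0.01 above the median of all genes. It fell also at 2 μg/mL α-amanitin (−1.03, SE 0.16, adjusted p = 0.0251), 1.07 below the median of all genes. The latter call was lost without either DMSO library (adjusted p = 0.122 and 0.0986), without the first library at 2 μg/mL α-amanitin (−0.78, adjusted p = 0.103) and in a fit of these 2 conditions alone (adjusted p = 0.069). At 1 μg/mL α-amanitin the log2 fold change was −0.45 (adjusted p = 0.466), and the α-amanitin doses differed by −0.57 (adjusted p = 0.368).

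*SYNCRIP* had 475 and 501 CPM in DMSO, 509 and 521 in 10 μg/mL DRB, 189 and 224 in 25 μg/mL DRB, 393 and 469 at 1 μg/mL α-amanitin, and 359 and 435 at 2 μg/mL α-amanitin. Only the 25 μg/mL DRB libraries were far below DMSO. There it fell by 1.23 on the log2 scale (SE 0.12, adjusted p = 0.000711), the largest fall of the 6 genes in any comparison with DMSO and 0.24 below the median of all genes. It was also lower than at 10 μg/mL DRB, with a log2 fold change of −1.31 (SE 0.11, adjusted p = 0.000404). Its difference from DMSO at 10 μg/mL DRB was 0.08 (95% interval −0.16 to 0.32) and at 2 μg/mL α-amanitin −0.30 (adjusted p = 0.177). Along its 10 MANE introns the log2 ratio at 25 μg/mL DRB went from −1.02 in the first to −1.47 in the last, with a lowest value of −1.55.

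The second exon of *HNRNPR* (chr1:23667345-23667510, 166 nt) spans the border of the 5′ untranslated and coding parts and is often skipped. Ψ was 0.316 and 0.311 in DMSO, 0.163 and 0.185 in 10 μg/mL DRB, 0.143 and 0.213 in 25 μg/mL DRB, 0.316 and 0.3 at 1 μg/mL α-amanitin, and 0.240 and 0.209 at 2 μg/mL α-amanitin. Both DRB doses and the higher α-amanitin dose lay below DMSO, with adjusted p of 0.125, 0.0673 and 0.2. The intron that joins exon 1 to exon 3 was used in 48.9% and 47.4% of competing split reads in DMSO and in 75.0% and 62.8% at 25 μg/mL DRB, a rise on the log2 odds scale of 1.06 (adjusted p = 0.0483). At 10 μg/mL DRB its share was 69.6% and 61.6% (adjusted p = 0.152). A variant of exon 2 that is 3 nt longer fell in Ψ at 25 μg/mL DRB, from 0.316 and 0.324 to 0.143 and 0.197 (adjusted p = 0.0474). It shares the downstream intron and its reads with the shorter form, so this is not a separate change. The intron to its own acceptor had 8 and 15 reads in DMSO and 0 and 3 at 25 μg/mL DRB. In the intron usage test that intron was not called (adjusted p = 0.165).

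The other alternative exons of *HNRNPR* and *SYNCRIP* showed smaller or less even differences. The 177-nt exon 6 of *HNRNPR* had Ψ of 0.962 and 0.958 in DMSO, 0.898 and 0.916 in 10 μg/mL DRB, and 0.745 and 1.000 in 25 μg/mL DRB, where the second library had no listed skipping read. The 114-nt exon 5 had Ψ between 0.911 and 1.000 over all libraries, with the lowest value in DMSO. An unannotated intron of 338 nt that starts at the donor of exon 5 was listed only at 25 μg/mL DRB, with 5 and 7 reads. In *SYNCRIP* the 150-nt exon 9 had no listed skipping read in DMSO or at 2 μg/mL α-amanitin, 11 and 4 in 10 μg/mL DRB, 0 and 10 in 25 μg/mL DRB, as well as 4 and 4 at 1 μg/mL α-amanitin. At both DRB doses the replicates of this exon were uneven. Exon 10 of *SYNCRIP* (122 nt) had at most 6 skipping reads in any library, and Ψ of exon 2 (160 nt) ranged from 0.902 to 1.000.

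*HNRNPU* (ENSG00000153187, chr1:245003940-245027862, minus strand) encodes hnRNP U, also called scaffold attachment factor A, which binds chromatin and nascent RNA. It had 952 and 797 CPM in DMSO, 1218 and 1158 in 10 μg/mL DRB, 675 and 719 in 25 μg/mL DRB, 801 and 835 at 1 μg/mL α-amanitin, and 803 and 800 at 2 μg/mL α-amanitin. The 10 μg/mL DRB libraries were above all others and the 25 μg/mL DRB libraries below all others, while both α-amanitin doses lay within the range of DMSO. The rise at 10 μg/mL DRB was 0.45 on the log2 scale (SE 0.11, adjusted p = 0.045). Without any single library of that comparison it was between 0.32 and 0.57, with adjusted p from 0.0809 to 0.252. The difference at 25 μg/mL DRB was −0.32 (adjusted p = 0.0618), 0.67 above the median of all genes, and it passed the threshold under 5 of 13 alternatives, with values down to −0.83 when scaling by total split reads (adjusted p = 0.00137). The doses differed by −0.76 (SE 0.11, adjusted p = 0.00236). All 13 MANE introns were above DMSO at 10 μg/mL DRB, with log2 ratios from 0.23 to 0.73, and 12 of 13 were below it at 25 μg/mL DRB.

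**Figure D4:**
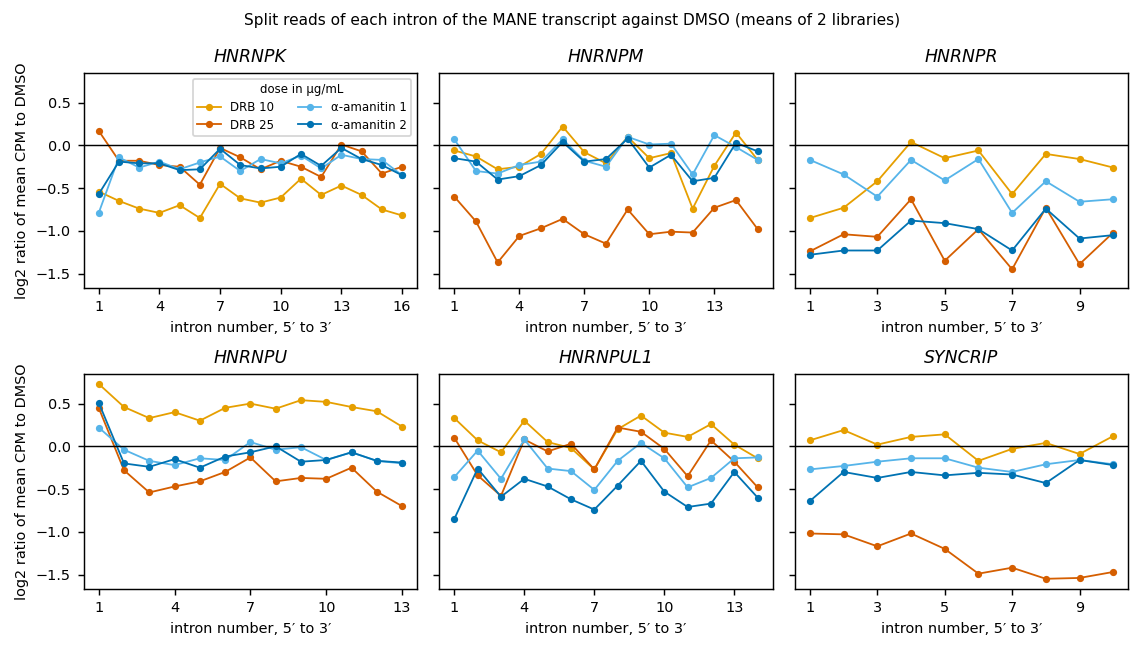
Log2 ratio of the mean CPM of each MANE intron to DMSO (vertical axis) by intron number from the 5′ end, for the 6 genes and 4 treatments. The introns of a gene mostly move together. The first intron of *HNRNPU* stands above its other introns in all 4 treatments, and by most at 25 μg/mL DRB and 2 μg/mL α-amanitin.

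The exception among the introns of *HNRNPU* at 25 μg/mL DRB was the first, with a log2 ratio of 0.45, and its 5′ splice sites are shown for that reason. Exon 1 has a MANE 5′ splice site and an alternative one 57 nt upstream, a multiple of 3, and both join the same exon 2. Below, the first lower-case run is exon 1 up to the alternative site, the capitals run from that site to the MANE site, and the last lower-case run starts the intron (GRCh37, minus strand, chr1:245026911-245026987).
HNRNPU between 5′ splice sites: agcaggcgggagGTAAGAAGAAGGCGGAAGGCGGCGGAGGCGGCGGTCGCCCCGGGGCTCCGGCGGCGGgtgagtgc
Of the bases between the sites 78.9% are G or C, and each site begins with GT.

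The alternative site carried most reads in every library. The intron from the MANE site to exon 2 took 16.4% and 16.4% of competing split reads in DMSO, 17.9% and 15.5% in 10 μg/mL DRB, 31.7% and 30.9% in 25 μg/mL DRB, 19.9% and 15.7% at 1 μg/mL α-amanitin, and 22.2% and 23.1% at 2 μg/mL α-amanitin. The 25 μg/mL DRB libraries were highest, and those at 2 μg/mL α-amanitin came next, both apart from DMSO. On the log2 odds scale the rise at 25 μg/mL DRB was 1.21 (adjusted p = 0.0174), and the difference at 2 μg/mL α-amanitin was 0.58 (unadjusted p = 0.0228, adjusted p = 0.146). The competing reads at 25 μg/mL DRB include 10 and 9 that join the MANE site to exon 3. Counted over all introns from either site, the MANE site carried 38.2% and 34.0% of the reads at 25 μg/mL DRB, and the same shares as above in the other libraries.

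Unspliced reads at the edges of the MANE first intron numbered 5 and 0 in DMSO, 35 and 38 in 10 μg/mL DRB, 51 and 58 in 25 μg/mL DRB, 16 and 25 at 1 μg/mL α-amanitin, and 22 and 38 at 2 μg/mL α-amanitin. Every treated library held more than either DMSO library. As a share of unspliced reads plus 2 times the split reads of this intron alone, they came to 2.07% ± 2.92 in DMSO (SD, n = 2), 14.7% ± 0.895 at 10 μg/mL DRB, 36.4% ± 11.3 at 25 μg/mL DRB, 10.3% ± 0.669 at 1 μg/mL α-amanitin and 11.6% ± 2.06 at 2 μg/mL α-amanitin. The alternative site joins the same acceptor, so unspliced reads at that edge can belong to either form. Its intron had 295 and 317 split reads in DMSO and 59 and 154 at 25 μg/mL DRB. Counting those too would lower the shares. The rise at 25 μg/mL DRB was called (adjusted p = 0.0257), 1 of 5 member introns called of 39 tested, all higher, where 11.1% of 6892 introns were called. In the other conditions none of the member introns was called (unadjusted p for this intron 0.0124, 0.0137 and 0.00632, adjusted p 0.353, 0.601 and 0.228). In these 3 conditions 3, 4 and 9 member introns had an unadjusted p under 0.05, and the background was 0%, 0% and 0.0213%. Of the 5 calls at 25 μg/mL DRB 3 had no unspliced read in DMSO, and all 5 were lost without any single library of DMSO or 25 μg/mL DRB. The other 4 were the intron from the alternative site of *HNRNPU*, whose unspliced reads include exonic reads of the MANE form, the introns on both sides of exon 8 of *HNRNPM* and the 10969-nt intron 7 of *HNRNPUL1*, the last 3 with at most 10 unspliced reads in any library.

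Split reads past the 3′ end of the *HNRNPU* MANE transcript (chr1:245013599) were listed only at 25 μg/mL DRB. They were chosen after their values were seen. The first library had 101 such reads over 9 introns and the second 57 over 6, which is 6.72% and 2.28% of the split reads of the gene (4.50% ± 3.15, SD, n = 2). No such intron was listed in the other 8 libraries, although the last MANE intron carried 402 to 590 reads there and 114 and 236 at 25 μg/mL DRB. Of the 9 introns 4 are annotated, and they use 2 exons, chr1:245012090-245012158 (69 nt) and chr1:245009906-245010008 (103 nt), each found in 4 annotated transcripts of *HNRNPU* and coding in none. The intron between the second of these exons and an exon further downstream (chr1:245008646-245009906 by exon edges) held 34 and 26 reads, and reads that left the MANE body for these exons from the donor of exon 13 numbered 14 and 8. Of these introns 2 reach into the span of *COX20* (chr1:244998918-245008359), which lies on the opposite strand, and the libraries were directional.

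**Figure D5:**
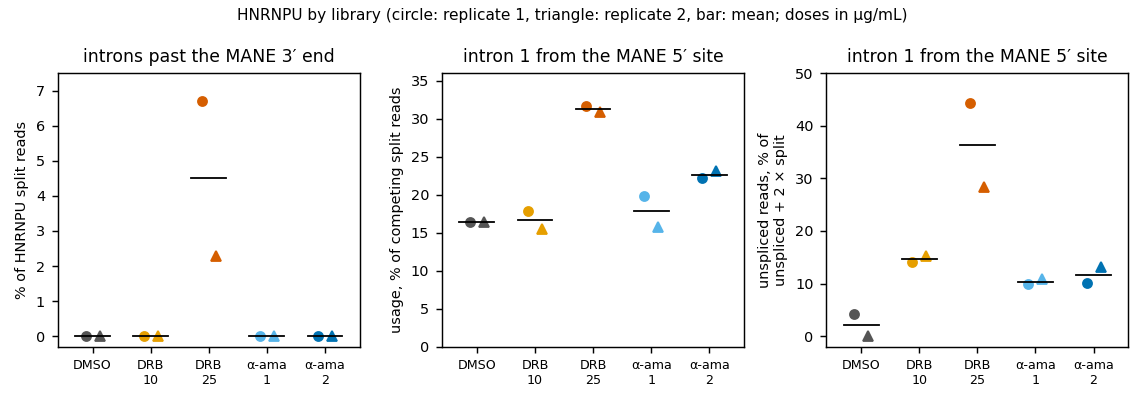
*HNRNPU* in each library: split reads past the MANE 3′ end as percent of the split reads of the gene (left), usage of the first MANE intron among competing split reads (middle) and unspliced reads of the first MANE intron (right). The 25 μg/mL DRB libraries are the highest in all 3 panels, and they alone have reads past the MANE 3′ end.

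Single exons of *HNRNPU* were skipped at 25 μg/mL DRB as well. The 112-nt exon 2 (chr1:245025921-245026032) had 19 and 14 skipping reads there and Ψ of 0.801 and 0.929. The 113-nt exon 6 (chr1:245022031-245022143) had 8 and 4 skipping reads and the 129-nt exon 9 (chr1:245020030-245020158) had 9 and 6, with Ψ from 0.907 to 0.969. No skipping read of these 3 exons was listed in any other library, although the 8 other libraries had 416 to 968 inclusion reads for each. No p is given for exons or introns with reads of the rarer form at 25 μg/mL DRB alone, since those reads brought them into the test. Of the 3 lengths only that of exon 9 is a multiple of 3.

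*HNRNPUL1* (ENSG00000105323, chr19:41768401-41813692, plus strand) encodes a relative of hnRNP U that has been linked to the DNA damage response. It had 496 and 399 CPM in DMSO, 482 and 462 in 10 μg/mL DRB, 394 and 483 in 25 μg/mL DRB, 382 and 392 at 1 μg/mL α-amanitin, and 312 and 320 at 2 μg/mL α-amanitin. The 2 μg/mL α-amanitin libraries were the lowest. No change of the gene passed the threshold, and the nearest was at 2 μg/mL α-amanitin (−0.49, SE 0.12, adjusted p = 0.0578), which passed under 4 of 13 alternatives. At 25 μg/mL DRB the difference from DMSO was −0.01 (95% interval −0.40 to 0.38), 0.98 above the median of all genes, but −0.52 (adjusted p = 0.0123) when scaling by total split reads.

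While the level of *HNRNPUL1* at 25 μg/mL DRB differed little from DMSO after TMM scaling, the skipping of its coding exon 14 (chr19:41811581-41811772, 192 nt, a multiple of 3) increased. The sequence is given because its tandem acceptors lie 30 nt apart. Capitals mark the exon from the MANE acceptor, and the first 8 lower-case bases end in the AG of the alternative acceptor (GRCh37, plus strand, chr19:41811543-41811780).
HNRNPUL1 exon 14: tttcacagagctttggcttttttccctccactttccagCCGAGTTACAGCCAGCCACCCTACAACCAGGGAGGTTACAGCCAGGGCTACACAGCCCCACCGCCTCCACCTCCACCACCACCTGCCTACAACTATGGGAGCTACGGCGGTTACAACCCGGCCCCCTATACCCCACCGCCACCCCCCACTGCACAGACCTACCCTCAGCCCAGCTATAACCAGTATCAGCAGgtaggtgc
The exon is 62.5% G or C.

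Reads that skipped exon 14 numbered 0 and 5 in DMSO, 19 and 30 in 10 μg/mL DRB, 25 and 41 in 25 μg/mL DRB, 13 and 14 at 1 μg/mL α-amanitin, and 22 and 12 at 2 μg/mL α-amanitin. Ψ was 1.000 and 0.957 in DMSO, 0.844 and 0.817 in 10 μg/mL DRB, 0.565 and 0.672 in 25 μg/mL DRB, 0.880 and 0.927 at 1 μg/mL α-amanitin, and 0.813 and 0.909 at 2 μg/mL α-amanitin. All treated libraries lay below DMSO, and the 25 μg/mL DRB libraries lay below all others. The log2 odds difference was −4.70 at 25 μg/mL DRB (adjusted p = 0.00931), −3.25 at 10 μg/mL DRB (unadjusted p = 0.00754, adjusted p = 0.119) and −2.86 at 2 μg/mL α-amanitin (adjusted p = 0.136), each against a DMSO group with 5 skipping reads. Of the reads at the tandem acceptors, leaving out those that skip the exon, the alternative one took 15.0% and 18.3% in DMSO, 9.41% and 9.17% in 10 μg/mL DRB, 23.7% and 20.5% in 25 μg/mL DRB, 19.8% and 14.6% at the lower α-amanitin dose, and 11.7% and 17.5% at the higher. The DRB doses thus lay on opposite sides of DMSO. These shares rest on 8 to 22 reads of the alternative acceptor per library and were not tested.

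Other exons of *HNRNPUL1* had skipping reads that were listed at 25 μg/mL DRB alone. The 169-nt exon 11 (chr19:41807441-41807609) had 19 and 23, with Ψ of 0.683 and 0.814, and the 154-nt exon 3 (chr19:41777987-41778140) had 6 and 10, with Ψ of 0.895 and 0.906. Neither length is a multiple of 3. In the other libraries exon 11 had 205 to 314 inclusion reads and exon 3 had 275 to 440.

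Over the 72 internal MANE exons of the 6 genes, 7 had skipping reads in both DMSO libraries, 9 at 10 μg/mL DRB, 14 at 25 μg/mL DRB, 10 at 1 μg/mL α-amanitin and 8 at 2 μg/mL α-amanitin. Over 40790 such exons of all genes the shares were 2.87%, 4.02%, 8.27%, 3.59% and 4.22%, and the reads per exon of the 6 genes were not matched to those of other genes. Of the 14 at 25 μg/mL DRB, 5 were in *HNRNPM*, 3 in *HNRNPU*, 3 in *HNRNPUL1*, 2 in *HNRNPK*, 1 in *HNRNPR* and none in *SYNCRIP*. Introns listed in both 25 μg/mL DRB libraries and in no other library numbered 15 of 146 member introns, where 2.9% of all 126404 introns met this. Listing needs at least 3 reads, and here too the reads of the 6 genes were not matched to those of other genes. These introns were 10 in *HNRNPU*, 3 in *HNRNPUL1*, 1 in *HNRNPK*, 1 in *HNRNPR* and none in *HNRNPM* or *SYNCRIP*, and 10 of the 15 are not annotated. Those in *HNRNPU* reach past its MANE 3′ end or skip exon 2, 6 or 9, and were described above. None of the member introns was listed in both DMSO libraries alone, where 0.148% of all introns were. In both 2 μg/mL α-amanitin libraries alone 1 was listed, in *SYNCRIP*, where 0.432% of all introns were. None was at 10 μg/mL DRB (0.569%) or 1 μg/mL α-amanitin (0.256%).

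Of a list of 27 other hnRNP and related genes, 23 could be tested. At 10 μg/mL DRB 11 of them fell and none rose, where 14.8% of all genes were called, with a median log2 fold change of −0.49 beside 0.01 for the 6 genes and 0.03 for all genes. The largest falls were in *HNRNPDL*, from 347 to 72 CPM (−2.30, adjusted p = 0.0102), and in *HNRNPA1*, from 2950 to 719 CPM (−2.03, adjusted p = 0.011). With 25 μg/mL DRB 9 fell and 4 rose, 13 of 23 where 61.3% of all genes were called, with a median of −0.22 beside −0.59 for the 6 genes and −0.99 for all genes. *HNRNPLL* had no listed split reads there against 85.5 CPM in DMSO, and *HNRNPDL* had the next largest fall, also to 72 CPM (−2.24, adjusted p = 0.000668). The largest rises were in *HNRNPC*, from 1364 to 2701 CPM (0.99, adjusted p = 0.00448), and *PCBP4*, from 77.3 to 146 CPM (0.96, adjusted p = 0.00791). At 2 μg/mL α-amanitin 9 fell and none rose, where 6.4% of all genes were called, with a median of −0.49 beside −0.26 for the 6 genes and 0.04 for all genes, and *HNRNPDL* (−2.31, adjusted p = 0.0117) and *RBMX* (−1.22, adjusted p = 0.0202) fell most. None was called at 1 μg/mL α-amanitin.

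The genes whose log2 CPM over the 10 libraries was most like each member, among 7056 genes with a mean of at least 50 split reads, are given as a description. They share libraries and scaling. *HNRNPK* was nearest to *IARS1* (Pearson r = 0.964), *LAS1L* (0.962) and *SLC25A5* (0.955). *HNRNPM* was nearest to *ZNHIT6* (0.977), *NARS2* (0.976) and *MID1* (0.976). For *HNRNPR* these were *YJU2* (0.982), *UBE2R2* (0.972) and *KAT5* (0.969), and for *SYNCRIP* *KYNU* (0.995), *PAAF1* (0.990) and *DCAF1* (0.989). *HNRNPU* was nearest to *PIP4K2B* (0.982), *ANKRD52* (0.973) and *AFG3L2* (0.968), and *HNRNPUL1* to *ECSIT* (0.934), *SMARCE1* (0.912) and *CHTOP* (0.911). Among the 6 genes themselves the highest coefficient was 0.94, between *HNRNPM* and *SYNCRIP*, and the lowest −0.63, between *HNRNPK* and *HNRNPU*.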

How the data were processed

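Poly(A)+ RNA of A549 cells was sequenced with 75-nt reads. The authors aligned the reads to GRCh37 (STAR 2.7.3a in the submitters' processing notes) and made intron and exon tables with the IPSA pipeline. The tables hold deposited whole-number read counts in a text field, not normalized, and a deposited score for display that was not used. No intron is listed with fewer than 3 split reads, so an unlisted feature is below that minimum and was counted as 0. Splice sites were matched to GENCODE release 44, which held 86.9% of the introns exactly, and 1610 introns shared by genes were left out.

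Split reads per gene were scaled by TMM and tested with limma voom (limma 3.58.1, R 4.3.3), keeping genes that had 10 or more reads in 2 libraries and 15 or more in total. Exon inclusion, intron usage and unspliced reads were tested with a quasi-binomial F test whose spread was moderated as in limma (floor 1), for features with at least 10 reads in every library and 10 on each side over the fit. Each fit held 6 libraries (DMSO and both doses of 1 drug), and Benjamini-Hochberg adjustment covered the whole table, with a threshold of 0.05. The quasi-likelihood count tests first planned were replaced by these, since the counts are held in text. Named are the 6 members, the 3 genes most alike, from the other hnRNP genes the 2 with the largest called changes each way, up to 6 called exons or introns per gene by adjusted p, and up to 4 exons per gene with pooled Ψ of 0.05 to 0.95 in at least 1 condition. The members and lists were chosen with earlier results of these data known. Alternatives changed scaling, filters, pseudocounts, tests, libraries and the replicate block. The scripts were tested on simulated data.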

Additional observations from a re-analysis of the deposited data

How the results depend on the processing

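The number of the 6 genes called at 10 μg/mL DRB was 2, and became 0 with a limma trend fit at a pseudocount of 0.5, 1 at a pseudocount of 2, 1 with the replicate number as a block and 0 (range 0 to 0) when any library was left out. At 25 μg/mL DRB it was 3, and became 6 with total split reads, 5 with median of ratios and 5 with only introns listed in every library, with 2 to 4 without single libraries (2 without the first DMSO library). At 2 μg/mL α-amanitin it was 1, and became 2 at a pseudocount of 2, with all 10 libraries in the fit and with only introns listed in every library, 4 with the replicate block (which adds *HNRNPK*, adjusted p = 0.0227, *HNRNPUL1*, 0.0188, and *SYNCRIP*, 0.0306), 0 in a fit of DMSO and the treated condition alone and 0 to 1 without single libraries. At 1 μg/mL α-amanitin no member, exon or intron was called under any alternative run, and at 2 μg/mL α-amanitin no exon or intron was. For exons at 10 μg/mL DRB, 0 became 2 with at least 30 reads, 2 with limma on log2 odds, 2 with all 10 libraries and 1 with a spread prior taken from features with 5 reads on the smaller side, an alternative chosen after seeing the data. For intron usage at 10 μg/mL DRB, 0 became 2 with limma on log2 odds, 2 with that prior and 5 with all 10 libraries, and for unspliced reads 0 became 1 with all 10 libraries. At 25 μg/mL DRB the 33 exons, 44 introns by usage and 5 introns by unspliced reads became 0, 0 and 0 with no minimum of reads, with the replicate block and without any single library (range 0 to 0), and the unspliced count was 3 with at least 30 reads and 0 in a fit of these 2 conditions alone. The cause was not tested. Called changes of the 6 genes kept their direction under all 13 alternatives. Replicate numbers come from the labels, which name no shared day or culture, and deviations of same-numbered libraries correlated above 0.1 in 6 of 10 pairs of conditions (−0.01 to 0.47). The pairs of DMSO and α-amanitin conditions gave 0.23, 0.29 and 0.47, and the 4 pairs with 25 μg/mL DRB at most 0.05. With 2 libraries per condition and no such label, the numbers were not taken to pair the libraries. With 2 libraries per condition, small changes in exons with few skipping reads could not be detected at this depth.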
